A study of Drosophila melanogaster with 23 samples.

Results

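LaminB, the product of the gene Lam, is the B-type lamin of Drosophila and a building block of the nuclear lamina, the protein mesh that lines the inner face of the nuclear envelope. The lamina holds large, gene-poor and mostly silent stretches of chromatin at the nuclear edge, and many of the genes kept there are tissue-specific ones, such as genes of the nervous system in cells that are not neurons. Dcr-2 is the endonuclease that cuts long double-stranded RNA (dsRNA) into small interfering RNAs in the cytoplasm. Both were depleted with dsRNA in Kc167 cells, a line of embryonic origin with haemocyte traits, and mock cells were transfected without dsRNA. A comparison of the 2 knockdowns asks which changes differed between lowering LaminB and lowering Dcr-2. Dcr-2 KD lowers the enzyme that cuts dsRNA, so it is no control for treatment with dsRNA alone.

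The comparison is (LaminB KD against mock 1 to 3) minus (Dcr-2 KD against mock 10 to 12), which uses 12 of the 23 libraries of the series. The groups were 3 libraries of LaminB KD and 3 mock libraries of its own experiment (mock 1 to 3), and 3 libraries of Dcr-2 KD and 3 mock libraries of its own experiment (mock 10 to 12). Nascent RNA was labelled in living cells with 5-ethynyl uridine at 0.2 mM over 1 h, captured through biotin azide at 0.25 mM, and sequenced by strand as single reads of 50 bp (neuRNA-seq). No label names separate cultures behind the replicates, so p-values measure the spread between these libraries only, which may be technical. The 2 knockdowns were done in different experiments, so the target, the experiment and how far each target was lowered cannot be told apart from one another.

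Total counts were 5215481 to 12982948 reads per library, and the shallowest was Dcr-2 KD 3, which also had the fewest genes with reads (8265). Of 12 haemocyte markers, srp, ush, Pvr, Pxn and Hml were at 492 CPM (the count relative to the normalised library size) or more in each of the 12 libraries, while NimC1 and NimC2 had at most 3 reads in any. The rest were low: crq, Col4a1, vkg, He and Sr-CI had at most 56.0, 55.5, 32.3, 11.8 and 4.62 CPM. The sum of the 12 markers came mostly from srp, ush, Pvr, Pxn and Hml. It was 10154 to 10330 CPM in LaminB KD and 8998 to 9532 CPM in mock 1 to 3, and 6870 to 7313 CPM in Dcr-2 KD and 7313 to 7561 CPM in mock 10 to 12. The 4 neuronal markers found in the table summed to 291 to 298 CPM in LaminB KD and 138 to 144 CPM in mock 1 to 3, and to 202 to 254 CPM in Dcr-2 KD and 219 to 255 CPM in mock 10 to 12. The higher sum in LaminB KD was mostly brp, at 196 to 206 CPM, against 64.6 to 70.8 CPM in mock 1 to 3, while elav was at 81.7 to 95.7 CPM, against 69.2 to 73.3 CPM, and Syt1 never passed 0.853 CPM. Sums of markers of muscle (801 to 894 CPM, against 723 to 793 CPM), epithelium (429 to 481 CPM, against 398 to 427 CPM) and the germline (8.55 to 14.5 CPM, against 6.61 to 7.31 CPM) were also above mock 1 to 3 in LaminB KD. The muscle sum was mostly Tm1 (792 to 884 CPM, against 717 to 787 CPM). wupA was also above, while Mhc, Mlc2 and up overlapped. The epithelium sum was mostly Nrx-IV (328 to 378 CPM, against 303 to 325 CPM). crb was also above, while shg and grh overlapped. The germline sum was mostly bam, which overlapped. The part of other cell types in the results was not tested.

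The targets were examined first. Lam (FBgn0002525; dm6, 2L from 5542480 to 5546642) had 106, 136 and 114 CPM in LaminB KD, against 376, 366 and 365 CPM in mock 1 to 3. It had 292, 309 and 267 CPM in Dcr-2 KD, against 329, 296 and 288 CPM in mock 10 to 12. Lam was thus low in the 3 LaminB KD libraries alone, and the interaction was -1.56 on the log2 scale (SE 0.13, edgeR adjusted p 5.87e-08). Dcr-2 (FBgn0034246; 2R from 17574979 to 17581525) had 168, 182 and 122 CPM in Dcr-2 KD, against 233, 218 and 232 CPM in mock 10 to 12, which is a difference of -0.53 on the log2 scale (SE 0.11, edgeR adjusted p 0.0105). Nascent Dcr-2 RNA was also higher in LaminB KD, at 216, 223 and 227 CPM, than in mock 1 to 3, at 155, 167 and 176 CPM (0.42 on the log2 scale, edgeR adjusted p 0.00935). The nascent RNA of the 2 targets therefore differed in how far it was lowered, by 1.64 for Lam and 0.53 for Dcr-2 on the log2 scale. For AGO2, the Argonaute protein that binds small interfering RNAs, the interaction was 0.19 (SE 0.10) and was not called (edgeR adjusted p 0.254).

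The 2 effects differed at many genes. Of 8377 genes tested, 713 (8.51%) had a positive interaction, meaning a higher log2 fold change with LaminB KD than with Dcr-2 KD, and 420 (5.01%) a negative one, at an edgeR adjusted p under 0.1. Together these were 13.5% of the genes tested. The simple effects of the same fit called 989 genes higher (11.8%) and 768 lower (9.17%) in LaminB KD, and 162 genes higher (1.93%) and 175 lower (2.09%) in Dcr-2 KD. An interaction can come from either knockdown, so a gene was called lamina-specific where the LaminB effect was itself called, had the sign of the interaction and was the larger of the 2. This name sorts the calls and carries no test of its own. It sets LaminB KD against Dcr-2 KD only, so it does not mean that a change was particular to LaminB KD. The paper reports similar changes in AGO2 and LaminB knockdowns, and the AGO2 KD effect at these genes was not examined. By this name 511 genes (6.1%) were higher and 269 (3.21%) were lower. The counts depended on gene length and GC content. With a correction for both in each library, 215 genes (2.6%) had a positive and 529 (6.41%) a negative interaction, so that the share of calls that were positive was 28.9% with the correction and 62.9% without it.

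**Figure D1:**
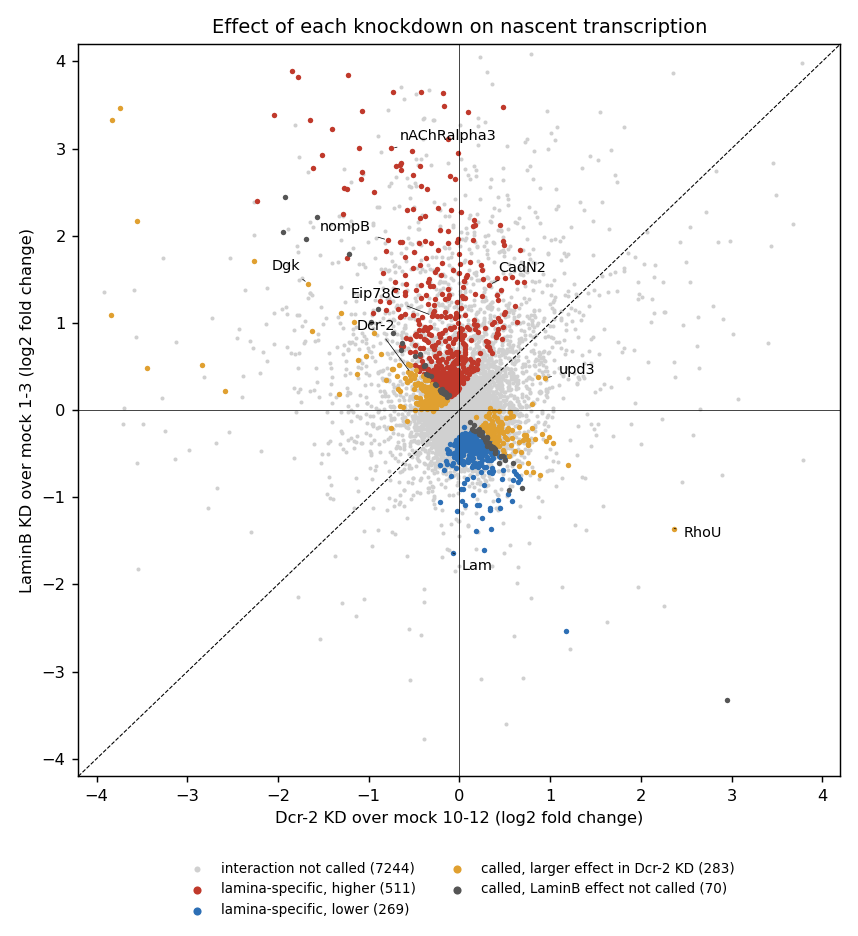
Log2 fold change of each of the 8377 genes in LaminB KD over mock 1 to 3 (vertical) against that in Dcr-2 KD over mock 10 to 12 (horizontal), coloured by class, with 35 genes outside the axes. The 511 lamina-specific genes that were higher and the 269 that were lower lie above and below the zero line, and the dashed line marks equal effects.

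The lamina-specific genes had small medians in Dcr-2 KD. Those that were higher had a median log2 fold change of 0.63 in LaminB KD and -0.13 in Dcr-2 KD, and those that were lower had medians of -0.45 and 0.13. The interaction was above 1 on the log2 scale in 188 of the 511 and below -1 in 33 of the 269. The LaminB KD libraries did not overlap mock 1 to 3 at 502 of the 511 and at 265 of the 269, against 36.8% of all genes tested. The Dcr-2 KD libraries overlapped mock 10 to 12 at 355 of the 511 (69.5%) and at 217 of the 269 (80.7%), against 81.8% of all genes tested. The Dcr-2 effect was itself called at 56 of the 511, 32 the other way and 24 the same way, and at 1 of the 269. Levels set the LaminB KD libraries apart at a part of these genes: all 3 were above each of the other 9 libraries at 288 of the 511 (56.4%, against 7.54% of all genes tested) and below them at 91 of the 269 (33.8%, against 3.98%). These shares describe values that the sorting itself used.

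The mock libraries of the 2 experiments were not at the same level. At 77.5% of the lamina-specific genes that were higher, mock 1 to 3 averaged less than mock 10 to 12, against 51.1% of all genes tested. At those that were lower the share was 12.6%. The interaction contains this difference, so it is a description of the members, and its part in the result was not tested.

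Receptors and channels best known from nerve cells were among the genes that were higher. Whether they lie in chromatin held at the lamina was not examined. The paper found no enrichment in such chromatin of genes raised by both AGO2 and LaminB knockdown. Of 36 tested members of a list of ion channels and neurotransmitter receptors, 12 (33.3%) had a positive and 1 (2.78%) a negative interaction, against 8.51% and 5.01% of all genes tested, and 8 of the 12 were lamina-specific. With the length and GC correction 4 were positive and 1 negative, against 2.6% and 6.41% of all genes. nAChRalpha1 (FBgn0000036; 3R from 24393896 to 24457157), a subunit of the nicotinic acetylcholine receptor, had 175, 163 and 202 CPM in LaminB KD, against 49.2, 51.1 and 51.1 CPM in mock 1 to 3. It had 120.0, 138 and 89.1 CPM in Dcr-2 KD, against 136, 132 and 139.8 CPM in mock 10 to 12. The LaminB KD libraries thus lay above all others, by far less over mock 10 to 12 than over their own mock libraries, and the interaction was 2.07 (SE 0.17, edgeR adjusted p 7.29e-08). Its relative nAChRalpha3 (FBgn0015519; X from 8276200 to 8367169) had 36.0, 45.0 and 46.6 CPM in LaminB KD, against 5.8, 6.87 and 3.2 CPM in mock 1 to 3. In Dcr-2 KD it had 9.82, 5.69 and 3.69 CPM, against 9.24, 12.5 and 11 CPM in mock 10 to 12. Here the 3 LaminB KD libraries stood well above the other 9, with an interaction of 3.75 (SE 0.43, edgeR adjusted p 7.43e-06). Both genes have a noncoding gene annotated on their own strand, so part of their reads is uncertain.

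Other members of that list included receptors, a stretch-activated channel and a potassium channel. Octbeta1R, a receptor for octopamine, had 117, 148 and 144 CPM in LaminB KD and 52.5, 57.4 and 59.2 CPM in mock 1 to 3, with an interaction of 1.54 (SE 0.17, edgeR adjusted p 2.84e-06). Piezo, the mechanosensitive channel, had 441, 374 and 410.3 CPM in LaminB KD and 254, 257 and 261 CPM in mock 1 to 3, but 499 to 589 CPM in Dcr-2 KD and 518 to 584 CPM in mock 10 to 12. Its LaminB KD level was therefore below that of the other experiment, although the interaction was positive at 0.68 (SE 0.11, edgeR adjusted p 0.000376). eag, a voltage-gated potassium channel, and nAChRalpha6 had interactions of 1.44 and 1.32 (edgeR adjusted p 0.0167 for both). With the correction Piezo, eag and nAChRalpha6 had 0.25, 0.90 and 0.70 and were not called (edgeR adjusted p 0.115, 0.17 and 0.232). The exception was nAChRbeta3, with -0.59 (edgeR adjusted p 0.0865), which was no longer called when any of 8 libraries, 1 at a time, was omitted (-0.74 to -0.46). The median interaction over the 36 members was 1.07, against -0.01 over all genes tested. Several members were at low levels and passed the filter through the group where they were high, so this median is a description. The quartile of all tested genes with the lowest mean level had a median interaction of 0.53.

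In the list of axon guidance and cell adhesion genes, the direction was the same, with 19 of 50 tested members positive, none negative and 14 lamina-specific, against 8.51% of all genes tested with a positive interaction. CadN2 (FBgn0262018; 2L from 17786971 to 17875247), a neural cadherin, had 701, 679 and 776 CPM in LaminB KD, against 256, 240.1 and 301 CPM in mock 1 to 3. It had 593, 546 and 605 CPM in Dcr-2 KD, against 468, 456 and 467 CPM in mock 10 to 12. The gene rose in both knockdowns, by 1.44 and 0.33 on the log2 scale, with an interaction of 1.11 (SE 0.11, edgeR adjusted p 1.36e-06). dlp, a cell-surface proteoglycan that binds Wnt and Hedgehog proteins, had 609.7, 618 and 704 CPM in LaminB KD, against 332, 353 and 362 CPM in mock 1 to 3. Its 6 libraries of the other experiment lay between 332 and 398 CPM, and the interaction was 0.88 (SE 0.11, edgeR adjusted p 3.2e-05). Dscam1, the axonal recognition molecule with many splice forms, had an interaction of 1.17 (SE 0.17, edgeR adjusted p 0.00011), and sli, the ligand of Robo receptors, one of 0.68 (SE 0.19, edgeR adjusted p 0.0297), and 0.20 with the length and GC correction (edgeR adjusted p 0.639). The 50 members were long genes, with a median length of 40501 bp, against 2842 bp over all genes tested. Their median interaction was 0.49, and it was -0.05 with the length and GC correction. With it 3 were positive and 5 negative, against 2.6% and 6.41% of all genes.

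**Figure D2:**
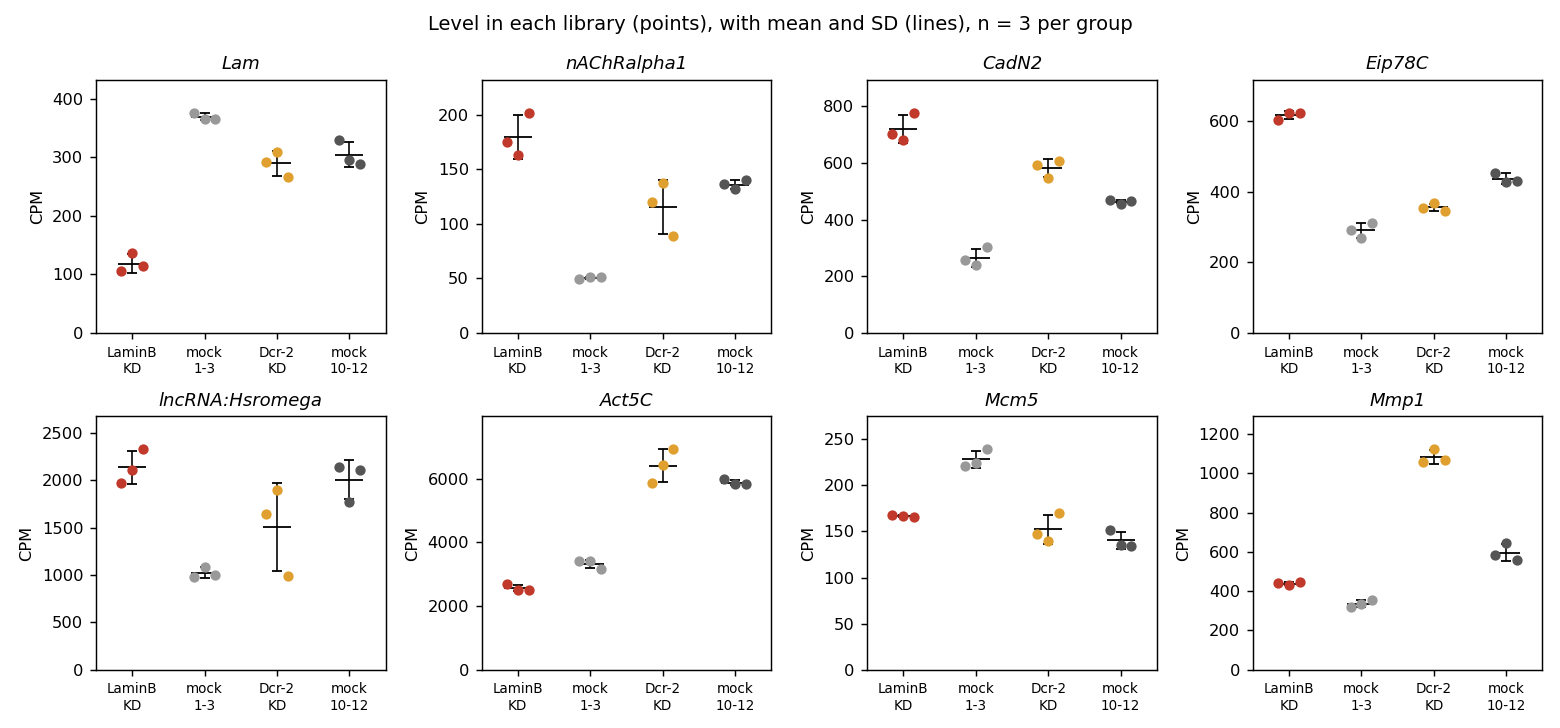
Level of 8 genes in CPM (vertical, from 0) in each library of LaminB KD, mock 1 to 3, Dcr-2 KD and mock 10 to 12, as points with the mean and SD (n = 3 per group). nAChRalpha1, CadN2, Eip78C and lncRNA:Hsromega are higher in LaminB KD than in mock 1 to 3, Lam, Act5C and Mcm5 are lower, and Mmp1 is highest in Dcr-2 KD, at 1059 to 1121 CPM.

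Genes of the response to ecdysone, the steroid hormone of moulting, were positive in 10 of 21 tested members (47.6%) and negative in none. The shares of all genes tested were 8.51% and 5.01%, and 7 of the 10 were lamina-specific. Eip78C (FBgn0004865; 3L from 21226609 to 21266503), a nuclear receptor induced early by ecdysone, had 603, 623 and 623 CPM in LaminB KD, against 290.2, 270.1 and 312 CPM in mock 1 to 3. In Dcr-2 KD it had 354, 367 and 346 CPM, against 454, 426 and 431 CPM in mock 10 to 12. It rose with LaminB KD and fell with Dcr-2 KD with no overlap in either, an interaction of 1.38 (SE 0.10, edgeR adjusted p 9.31e-09). EcR, the ecdysone receptor itself, had 902, 936 and 922 CPM in LaminB KD and 688, 619 and 722 CPM in mock 1 to 3, with an interaction of 0.72 (SE 0.11, edgeR adjusted p 0.000179). Each of its LaminB KD libraries was below mock 10 to 12, at 1110, 945 and 959 CPM. With the length and GC correction its interaction was 0.086 and was not called (edgeR adjusted p 0.546). Several transfer RNA genes lie within EcR on its strand. The median of the 21 members was 0.43, and -0.07 with the length and GC correction. With it 1 member was positive and 3 were negative, against 2.6% and 6.41% of all genes. The positive one was Eip78C, at 0.88 (edgeR adjusted p 5.57e-07).

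Most of the largest positive interactions were at genes of low level in mock 1 to 3. In the quartile of genes with the lowest mean level (8.11 CPM or less), the median interaction was 0.53. It was 0.48 with the length and GC correction. Of that quartile 4.60% had a positive and 0.339% a negative interaction. CG30484 and CG30485 are neighbours on 2R (from 13846393 to 13849832 and from 13849882 to 13852983), read in the same direction. CG30484 had 21.6, 51.1 and 48.9 CPM in LaminB KD, against 6.92, 5.21 and 5.01 CPM in mock 1 to 3, with an interaction of 3.47 (SE 0.53, edgeR adjusted p 0.000214). CG30485 had 19.6, 27.1 and 33.7 CPM in LaminB KD, against 5.09, 1.66 and 2.34 CPM in mock 1 to 3, with an interaction of 3.23 (SE 0.62, edgeR adjusted p 0.00225). In the other experiment neither passed 10.6 CPM, so both stood out in LaminB KD alone. Ance-2 and Ance-3, neighbours on 2L related to the angiotensin-converting enzyme, had interactions of 3.21 and 4.11 (edgeR adjusted p 0.00572 and 0.019). Ance-3 had 9.47, 17.4 and 19.7 CPM in LaminB KD and 2.15, 1.88 and 1.71 CPM in mock 1 to 3, but ranged from 0 to 3.18 CPM in Dcr-2 KD and from 0.131 to 5.37 CPM in mock 10 to 12.

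4 more of the 10 largest had a level elsewhere that bears on their reading. CG42249 had 48.3, 43.6 and 38.9 CPM in LaminB KD and 3.18, 4.88 and 2.45 CPM in mock 1 to 3, but 3.03 to 22.7 CPM in Dcr-2 KD and 1.12 to 22.8 CPM in mock 10 to 12. SPR, the sex peptide receptor, had 18, 19 and 20.2 CPM in LaminB KD and 2.86, 4.1 and 2.66 CPM in mock 1 to 3, but 17.1, 20.3 and 17.9 CPM in mock 10 to 12. Its level in LaminB KD was thus that of the mock cells of the other experiment. Or19b, an odorant receptor with a near-identical copy close by, had 35.8 CPM in 1 LaminB KD library and 7.68 and 10.1 CPM in the other two. eIF4B, a translation initiation factor gene in the 3L part next to the centromere, had the largest interaction of all that the rule named (12.11, SE 1.90, edgeR adjusted p 0.00029). Its values were 79.8, 1.51 and 0.469 CPM in LaminB KD and at most 0.443 CPM in mock 1 to 3, and 1.41 to 7.65 CPM in Dcr-2 KD and 33.5 to 232 CPM in mock 10 to 12. Libraries of 1 group differed by more than most groups did, and the value is uncertain. The last of the 10 was cocoon, at 11.6, 18.6 and 17.3 CPM in LaminB KD and 2.7, 2.77 and 2.03 CPM in mock 1 to 3 (interaction 3.74, SE 0.57, edgeR adjusted p 0.000201).

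Single members of other lists were also lamina-specific and higher. dl, the Rel transcription factor of the Toll pathway, had 246, 241 and 264 CPM in LaminB KD, against 139, 151 and 138 CPM in mock 1 to 3 (interaction 0.86, SE 0.13, edgeR adjusted p 0.000283). cact, which holds dl in the cytoplasm, rose with it (interaction 0.40, SE 0.10, edgeR adjusted p 0.0122), but had 0.03 with the length and GC correction (edgeR adjusted p 0.902). These were the 2 called among 27 tested Toll and Imd genes, a share of 7.41%, against 8.51% of all genes tested. hid, which sets off cell death by blocking an inhibitor of caspases, had 37.6, 28.5 and 31.5 CPM in LaminB KD and 14.6, 13.3 and 19.2 CPM in mock 1 to 3 (interaction 1.1, SE 0.30, edgeR adjusted p 0.0231), and 0.67 with the correction, which was not called (edgeR adjusted p 0.185). scyl, a brake on growth under low oxygen, had 1219, 1238 and 1217 CPM in LaminB KD and 689.6, 753 and 704 CPM in mock 1 to 3 (interaction 0.73, SE 0.12, edgeR adjusted p 0.000348). Mmp2, a protease of the extracellular matrix, had 34.1, 29.6 and 44.4 CPM in LaminB KD and 13.8, 10.2 and 14.5 CPM in mock 1 to 3 (interaction 1.43, SE 0.31, edgeR adjusted p 0.00511). Dhc93AB, a heavy chain of axonemal dynein, was the 1 called among 9 tested dynein heavy chains (11.1%, against 8.51% of all genes tested). It had 23, 12.7 and 12.5 CPM in LaminB KD and 0.746 to 2.15 CPM in mock 1 to 3.

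The heat shock list was split. lncRNA:Hsromega, the noncoding RNA that forms nuclear speckles after heat shock, had 1968, 2108 and 2323 CPM in LaminB KD, against 977, 1088 and 999 CPM in mock 1 to 3. It had 1643, 1892 and 988 CPM in Dcr-2 KD, against 2134, 1766 and 2108 CPM in mock 10 to 12. LaminB KD thus reached the level of the other experiment's mock cells, and the interaction was 1.47 (SE 0.20, edgeR adjusted p 4.58e-05). Hsp23, a small heat shock protein, had 23.3, 24.3 and 28.1 CPM in LaminB KD and 11.8 to 30.6 CPM in mock 1 to 3, but 764, 1044 and 572 CPM in Dcr-2 KD and 1411, 1083 and 1304 CPM in mock 10 to 12. Its positive interaction (0.91, SE 0.30, edgeR adjusted p 0.0601, lost without LaminB KD 3, mock 3, mock 10 or mock 12) came with a fall in Dcr-2 KD, and the level differed between the experiments far more than within either. Of 23 tested members 5 were positive (21.7%) and 2 negative (8.7%), against 8.51% and 5.01% of all genes tested. LaminB KD alone called 2 members higher and 9 lower, and Dcr-2 KD called 0 higher and 6 lower. The median effect was -0.14 in LaminB KD and -0.54 in Dcr-2 KD. The Hsp70 genes, among them Hsp70Bb and Hsp70Ab, are near-identical copies of one another and their values are uncertain.

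The lamina-specific genes that were lower were short, with a median length of 2049 bp, against 17897 bp for those that were higher. No member of 4 lists of genes that most cells use had a positive interaction. Of 79 tested cytosolic ribosomal protein genes 12 were negative, of 69 mitochondrial ribosomal protein genes 7, of 72 nuclear genes of oxidative phosphorylation 11, and of 34 proteasome genes 8, against 5.01% of all genes tested. Their medians were -0.25, -0.37, -0.22 and -0.38. RpL23A had 386, 393 and 418 CPM in LaminB KD and 599, 542 and 471 CPM in mock 1 to 3 (interaction -0.45, SE 0.11, edgeR adjusted p 0.0172), with small nucleolar RNA genes in its introns on the same strand. ATPsynE, a subunit of ATP synthase, had 19.3, 25.9 and 28.6 CPM in LaminB KD, against 42.4, 51.6 and 44.3 CPM in mock 1 to 3. It had 42.2 to 48.6 CPM in Dcr-2 KD and 41.8 to 48.2 CPM in mock 10 to 12, so that only LaminB KD was low (interaction -0.93, SE 0.22, edgeR adjusted p 0.0109). With the length and GC correction, 7 of 79, 1 of 69, 5 of 72 and 1 of 34 members were negative. These shares were near or below the 6.41% of all genes. The medians were then -0.13, -0.12, -0.16 and -0.19, against -0.07 over all genes.

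In the nuclear envelope, kuk and Ote were lower beside the knocked-down Lam, and LamC was higher. Of 13 tested genes of the lamina and inner nuclear membrane these 3 were negative and this 1 was positive, against 5.01% and 8.51% of all genes tested. Lam was the target of the knockdown, so its fall was set by the treatment and is no trait of the list. kuk, a farnesylated protein of the nuclear envelope that shapes nuclei in the embryo, had 151, 161 and 142 CPM in LaminB KD, against 207, 219 and 216 CPM in mock 1 to 3. In Dcr-2 KD it had 105, 105 and 102 CPM, against 92.7, 92.8 and 85.1 CPM in mock 10 to 12 (interaction -0.71, SE 0.12, edgeR adjusted p 0.000881). Ote, a protein of the inner membrane with a LEM domain, had 76.5, 90.8 and 86.5 CPM in LaminB KD, against 125, 120.3 and 124 CPM in mock 1 to 3 (interaction -0.75, SE 0.15, edgeR adjusted p 0.00378). LamC, the A-type lamin, went the other way, with 57.5, 47.7 and 46.3 CPM in LaminB KD, against 28.3, 25.8 and 27.6 CPM in mock 1 to 3. It was also higher in Dcr-2 KD, at 157, 176 and 158 CPM, against 132, 119.5 and 117 CPM in mock 10 to 12, and the interaction was 0.48 (SE 0.15, edgeR adjusted p 0.0563), a call lost without LaminB KD 1, mock 2, Dcr-2 KD 1 or mock 10 (0.37 to 0.54 over the 12 fits). With the length and GC correction Ote had -0.46 and LamC 0.37, neither of them called (edgeR adjusted p 0.136 and 0.157), while kuk had -0.82 (edgeR adjusted p 0.000148). LBR, the lamin B receptor, was at 426, 386 and 385 CPM in LaminB KD and 503, 465 and 459 CPM in mock 1 to 3, but its interaction of -0.06 (SE 0.11) was not called (edgeR adjusted p 0.785). Of 28 tested nuclear pore genes, 4 (14.3%) were negative and none positive, among them Nup54 and Nup43, with interactions of -0.64 and -1.17 (edgeR adjusted p 0.0201 and 0.0235).

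Insulator proteins, which bind DNA at the borders of chromatin domains, were negative in 4 of 16 tested members (25%) and positive in none. The shares of all genes tested were 5.01% and 8.51%. mod(mdg4) had 605, 562 and 572 CPM in LaminB KD, against 752, 768 and 772 CPM in mock 1 to 3, and 449 to 506 CPM in both groups of the other experiment (interaction -0.40, SE 0.09, edgeR adjusted p 0.00939). Its transcripts are made by trans-splicing from precursors that the annotation lists on the same strand, so its reads are uncertain. CTCF had 85.4, 82.0 and 85.4 CPM in LaminB KD, against 111, 108 and 116 CPM in mock 1 to 3 (interaction -0.55, SE 0.15, edgeR adjusted p 0.0299). The others were Ibf1 and pzg. Of 16 tested genes of cohesin and condensin, 2 were positive (12.5%, against 8.51% of all genes tested) and none negative, while the LaminB effect alone was called lower at 5 and higher at 3. Nipped-B, which loads cohesin onto DNA, had 1318, 1409 and 1539 CPM in LaminB KD and 992, 1002 and 1051 CPM in mock 1 to 3 (interaction 0.73, SE 0.11, edgeR adjusted p 0.00029). Each of its LaminB KD libraries was below mock 10 to 12, at 1584 to 1725 CPM. vtd, the kleisin subunit of cohesin, had an interaction of 0.42 (SE 0.10, edgeR adjusted p 0.0137). Both are long, and with the correction they had 0.09 and -0.13 and were not called. CTCF and mod(mdg4) stayed negative, at -0.47 and -0.80 (edgeR adjusted p 0.0676 and 6.7e-06).

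Among abundant genes, Act5C, a cytoplasmic actin, had 2679, 2499 and 2505 CPM in LaminB KD, against 3401, 3399.7 and 3166 CPM in mock 1 to 3. It had 5876, 6433 and 6917 CPM in Dcr-2 KD, against 5975, 5822 and 5843 CPM in mock 10 to 12. LaminB KD was below its mock libraries without overlap, Dcr-2 KD overlapped its own, and the 2 experiments differed by more than either knockdown (interaction -0.50, SE 0.08, edgeR adjusted p 0.000338). alphaTub84B, an alpha tubulin, was lower in the same way (interaction -0.50, SE 0.13, edgeR adjusted p 0.0186). Mcm5, a subunit of the replicative helicase, had 167, 167 and 166 CPM in LaminB KD, against 221, 225 and 239 CPM in mock 1 to 3 (interaction -0.57, SE 0.13, edgeR adjusted p 0.00693). It was 1 of 8 negative members among 57 tested genes of DNA replication and the cell cycle (14.0%), where 5 were positive (8.77%), against 5.01% and 8.51% of all genes tested. With the correction 4 were negative and none positive, against 6.41% and 2.6% of all genes. In that list LaminB KD called 21 lower and 1 higher, so the simple effect reached more members than the interaction did. The 2 largest negative interactions of lamina-specific genes that the rule named were at weakly read short genes. CG31360 had 2.92, 3.15 and 3.16 CPM in LaminB KD, against 7.47, 9.53 and 6.93 CPM in mock 1 to 3 (interaction -1.72, SE 0.52, edgeR adjusted p 0.0412, lost without mock 2), and QIL1, of the mitochondrial inner membrane complex MICOS, had 4.09, 5.67 and 9.02 CPM in LaminB KD, against 11.7, 11.7 and 15.3 CPM in mock 1 to 3 (interaction -1.63, SE 0.43, edgeR adjusted p 0.0218).

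**Figure D3:**
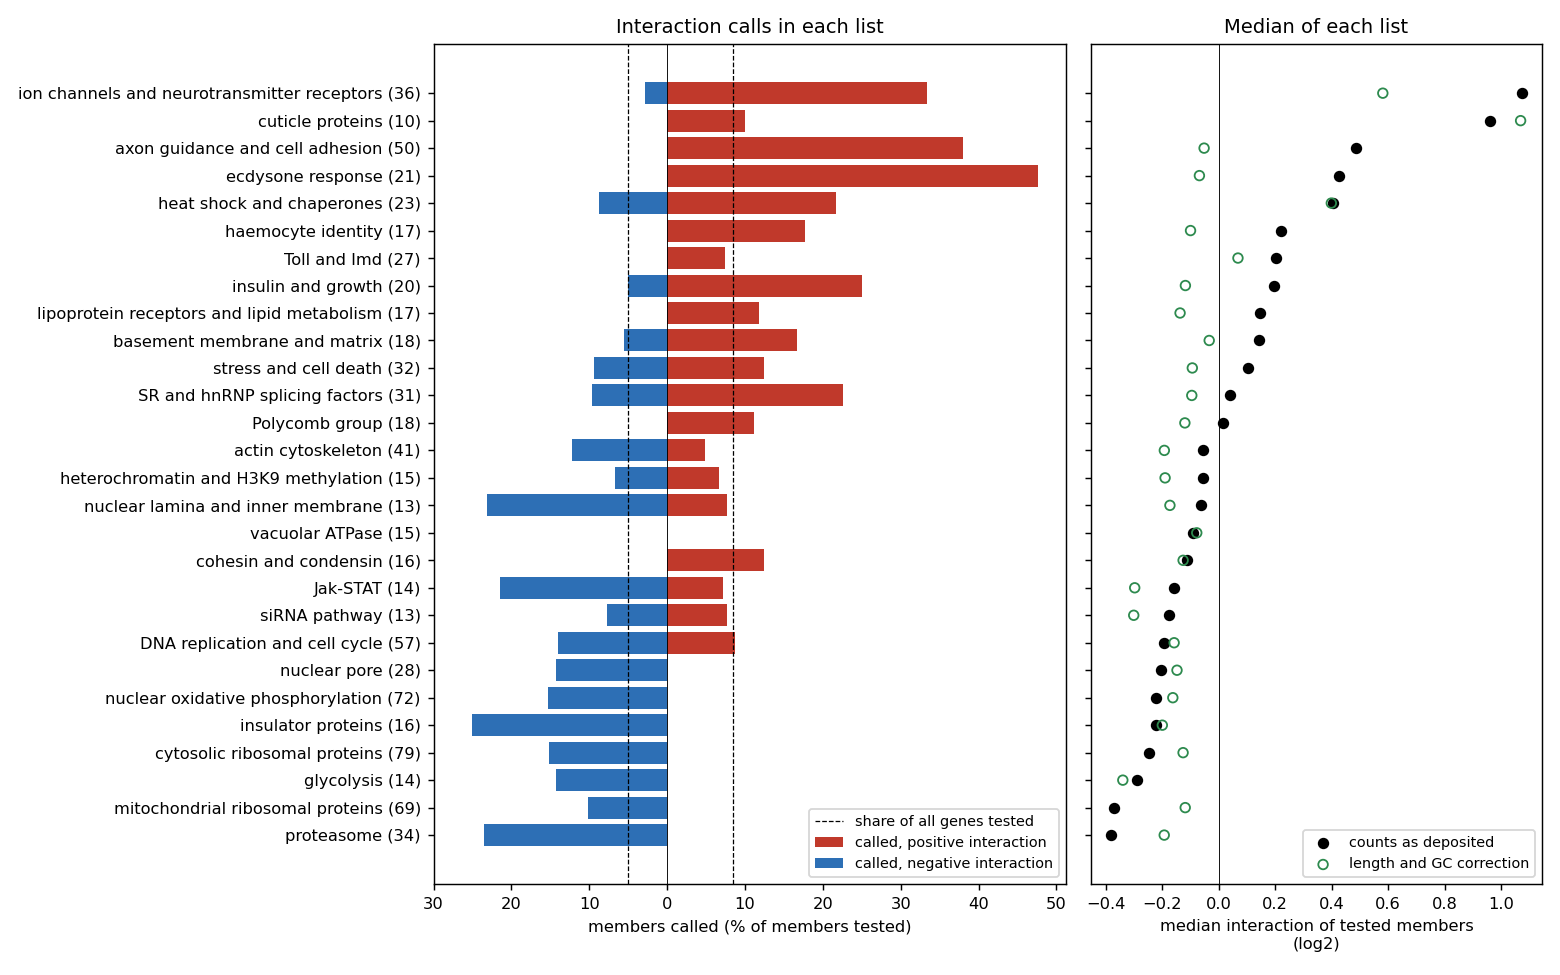
For each of the 28 lists with at least 10 members tested (number in brackets), the share of members with a positive (right) or negative (left) interaction, with dashed lines at the shares of all genes (8.51% and 5.01%), and the median interaction of the members on the log2 scale from the counts as deposited and with the length and GC correction. Ecdysone response, axon guidance and ion channels lead on the right, insulator proteins, proteasome and nuclear lamina on the left, and the medians of axon guidance and ecdysone response lie near 0 after the correction. The nuclear lamina list includes Lam, the knocked-down gene itself.

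Genes with a larger effect in Dcr-2 KD made up 168 of the 713 positive and 115 of the 420 negative interactions. Mmp1, a matrix metalloprotease, had 439, 429.9 and 445 CPM in LaminB KD, against 321, 332 and 354 CPM in mock 1 to 3. It had 1059, 1121 and 1066 CPM in Dcr-2 KD, against 583, 643 and 560.2 CPM in mock 10 to 12. It rose in both, by 0.38 and 0.86 on the log2 scale, and more in Dcr-2 KD (interaction -0.48, SE 0.10, edgeR adjusted p 0.00301). upd3, a ligand of the Jak-STAT pathway, had the same pattern, at 72.1, 58.1 and 78.2 CPM in LaminB KD and 51.9 to 56.0 CPM in mock 1 to 3, and at 287, 324 and 305 CPM in Dcr-2 KD and 151 to 167 CPM in mock 10 to 12 (interaction -0.58, SE 0.14, edgeR adjusted p 0.0154). InR, the insulin receptor, and CycE, the cyclin of entry into S phase, fell in Dcr-2 KD by 0.28 and 0.34 on the log2 scale, with LaminB effects of 0.14 and 0.10 that were not called. Their interactions were positive, and with the correction they were -0.15 and 0.02 and not called. The 3 largest of each sign were Dgk, Hsp70Ab and Ca-alpha1T, and RhoU, Rrp42 and CG9360. Of these, RhoU and Hsp70Ab overlapped between knockdown and mock in both experiments, with single libraries up to 572 and 135 CPM, and RhoU lost its call without mock 1 (interactions of -4.33 to -1.81 over the 12 fits). Hsp70Ab lost its call without LaminB KD 1, mock 1, mock 2 or mock 12 (1.06 to 3.55), and Ca-alpha1T without LaminB KD 2 or mock 2 (1.93 to 3.08).

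Of the genes that rose in LaminB KD, 96 also rose in Dcr-2 KD, which is 9.71% of the LaminB list, against 1.93% of all genes tested, and 59.3% of the Dcr-2 list, against 11.8%. Of those that fell in LaminB KD, 11 also fell in Dcr-2 KD. That is 1.43% of the LaminB list and 6.29% of the Dcr-2 list, both below the shares of all genes tested (2.09% and 9.17%). The 2 comparisons share no library, only the estimate of spread. In opposite directions, 68 genes (0.812% of those tested) were called, 60 higher in LaminB KD and lower in Dcr-2 KD, and 8 the reverse. The interaction is the difference of the 2 effects, so it was called at each of the 68 almost by construction. Beside Eip78C these included nompB, a protein of intraflagellar transport, with 42.3, 49.4 and 54.1 CPM in LaminB KD, against 15.6, 10.5 and 11.4 CPM in mock 1 to 3, and 17.6, 17.5 and 12.3 CPM in Dcr-2 KD, against 27.0, 22.6 and 32.6 CPM in mock 10 to 12 (interaction 2.74, SE 0.29, edgeR adjusted p 2.79e-06). Ac13E, an adenylyl cyclase, had 243, 294 and 279 CPM in LaminB KD, against 168, 162 and 182 CPM in mock 1 to 3, and 111, 121 and 117 CPM in Dcr-2 KD, against 183, 158 and 149 CPM in mock 10 to 12 (interaction 1.16, SE 0.14, edgeR adjusted p 8.19e-06). nompB and Ac13E were chosen after their values were seen.

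Gene length went with the sign of the interaction. In the longest quartile of genes (6851 bp or more), 26.1% had a positive and 0.824% a negative interaction, while in the shortest quartile (1546 bp or less) the shares were 1.98% and 5.37%. The median interaction was -0.20, -0.15, -0.03 and 0.29 from the shortest to the longest quartile. The LaminB effect had medians of -0.14 and 0.22 at the ends, and the Dcr-2 effect 0.06 and -0.08, so the gradient was wider in LaminB KD and ran the other way in Dcr-2 KD. Of the lamina-specific genes that were higher, 379 were in the longest quartile (75.6%), against 7 of those that were lower. GC content ran alongside, with medians of 0.26 in the quartile of lowest GC and -0.22 in that of highest. Within the longest quartile, the share with a positive interaction was still 36.2% at the lowest GC and 1.85% at the highest.

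**Figure D4:**
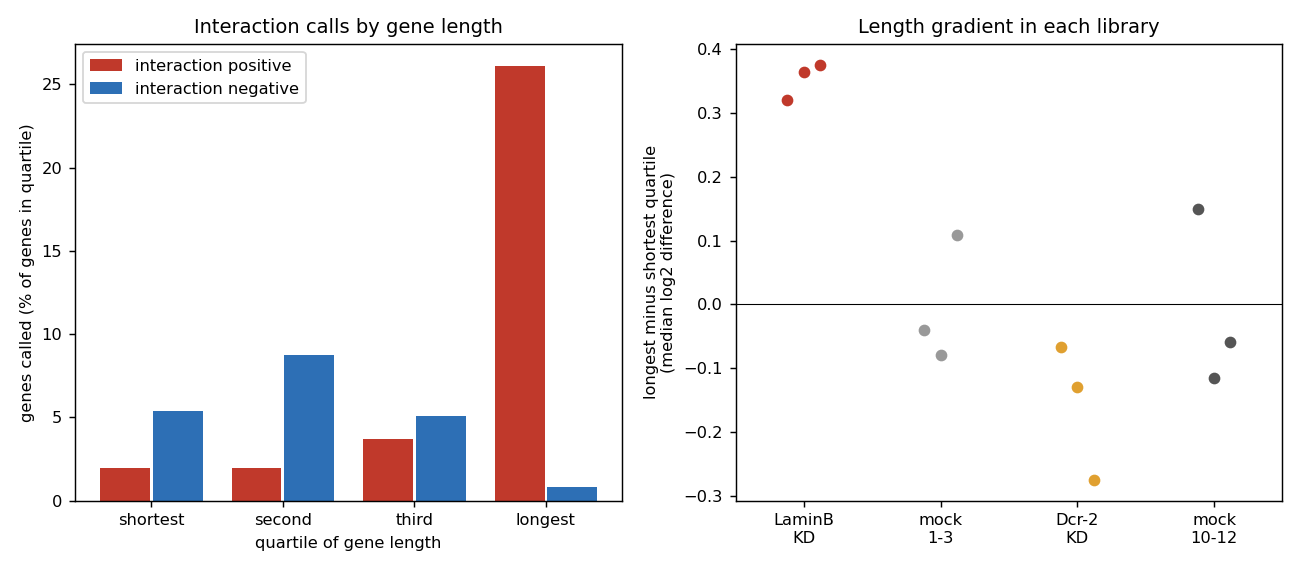
Left, share of genes with a positive or negative interaction (vertical, in percent) in each quartile of gene length; right, difference between the longest and the shortest quartile in the median log2 difference of each library from mock libraries of its experiment (a mock library from the other two), over 6647 genes of at least 5 CPM. The 3 LaminB KD libraries lie at 0.32 to 0.38, above all mock libraries (-0.12 to 0.15), and Dcr-2 KD 3 is lowest at -0.27.

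The gradient was present in each LaminB KD library. The median log2 difference from mock libraries was larger in the longest than in the shortest quartile by 0.32, 0.36 and 0.38 in LaminB KD, and by -0.04, -0.08 and 0.11 in mock 1 to 3, each set against the other two. In Dcr-2 KD it was -0.07, -0.13 and -0.27, and in mock 10 to 12 it was 0.15, -0.12 and -0.06. The LaminB KD libraries lay together above all others, whereas Dcr-2 KD 1 lay within the range of its mock libraries and Dcr-2 KD 2 and 3 lay below it. Without Dcr-2 KD 3 the interaction was positive at 625 and negative at 368 genes, of which 509 and 289 were lamina-specific. Reads were counted over whole gene bodies with their introns, and whether the gradient belongs to transcription or to the libraries was not tested. With the correction, 169 of the 511 (33.1%) and 122 of the 269 (45.4%) kept a called interaction of the same sign, against 2.6% and 6.41% of all genes, and 113 of the 511 changed sign. The same counts gave the first calls, so the shares kept are a description and no further support. Members without a position could not be corrected and count as not kept. Of the 33 lamina-specific genes named by the rule that were higher, 21 kept the call, and so did 20 of the 30 that were lower.

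Isolated genes were more often positive. In the quartile of genes whose start lay farthest from another gene start (2553 bp or more), 14.9% were positive and 3.05% negative, and in the nearest quartile (279 bp or less) 3.54% and 6.49%. With at most 13 gene starts within 50000 bp on either side, the shares were 16.2% and 3.61%, and with at least 25 they were 4.59% and 5.47%. Isolated genes were longer as well, with a median of 5003 bp in the farthest and 2251 bp in the nearest quartile. With the correction the farthest quartile had 4.51% positive and the nearest 0.969%. On chromosome 4, which is small and largely heterochromatic, 18 of 75 genes (24.0%) were positive and 2 (2.67%) negative, against 7.46% to 8.96% positive on the major arms, and the median length there was 9242 bp. With the correction 5.33% of the chromosome 4 genes were positive and 13.3% negative.

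Neighbours of their own class were counted for the lamina-specific genes. Of 501 with a position that were higher, 103 (20.6%) had an adjacent tested gene that was lamina-specific and higher, against 11.6% of all tested genes with such a neighbour. Among the 384 with an adjacent gene on the other strand, where reads by strand cannot be shared, 39 (10.2%) had such a neighbour there, against 7.48% of all genes tested. On the same strand it was 67 of 354 (18.9%), against 8.78%. Of 264 that were lower the share was 9.09%, against 6.27%, with 9.13% on the other strand, against 5.14%, and 1.39% on the same strand, against 3.21%. The longest runs had 4 genes. CG33783, CG33784, nerfin-2 and lncRNA:CR45054 lie on 3R from 10066770 to 10090525, all on the plus strand, with a median interaction of 1.24, and CG8034, CG8051, out and kek5 lie on X from 19281232 to 19471914. An annotated transposon lay within 20.2% of the lamina-specific genes that were higher, on the same strand, against 2.23% of those that were lower and 6.31% of all genes tested. Their median lengths were 17897, 2049 and 2842 bp, and a longer gene has more room for a transposon. The shares were not compared at equal length. Of 370 tested noncoding RNA genes 21 were positive (5.68%) and 2 negative (0.541%), both below the shares of all genes tested.

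Promoters of the 2 classes held different motifs. The window ran from 250 bases before to 50 after the annotated gene start in the RefSeq Release 6 genome (the dm6 build), and a match on either strand counted. GAGAGAG, the kind of repeat that GAGA factor (Trl) binds, was in 84 of 501 promoters (16.8%) of the genes that were higher, in 3 of 264 (1.14%) of those that were lower and in 6.01% of 8255 tested promoters. Long genes had it more often. In the longest quartile it was in 20.1% of the lamina-specific genes that were higher, against 13.7% of all. TATCGATA, a palindrome that holds the core of the sequence bound by DREF, a factor of housekeeping and replication genes, was in 7.58% of the genes that were higher, in 20.1% of those that were lower and in 14.0% of all. In the longest quartile, which held most of the genes that were higher, it was in 7.39% of them, against 9.88% of all. TATAAA was in 40.3%, 45.5% and 44.1%, and CAGCTG in 17.0%, 16.7% and 20.7%. None of the 4 motifs contains another. A match is a description of these letters and not a bound site, and many genes have further start sites that the window misses. The windows of 30 bases below are from lamina-specific genes described here, 5′ to 3′ on the gene's strand, with the match in capitals. For the first 6, all higher in LaminB KD, it is GAGAGAG or its reverse complement.
nAChRalpha3 (chrX:8367132-8367161, minus strand): cgtttcgcttcGAGAGAGagagagagttac
hid (chr3L:18185718-18185747, minus strand): ggagagggagcGAGAGAGattgcgattgca
pnt (chr3R:23346240-23346269, minus strand): gcggagagaaaGAGAGAGagaaacggagag
scyl (chr3L:11252156-11252185, plus strand): ttgttatatccCTCTCTCtcgcgctcttgc
lncRNA:Hsromega (chr3R:21296114-21296143, plus strand): gcatgcggtccCTCTCTCgaaaactgaaca
Hsp70Bb (chr3R:12505708-12505737, plus strand): ctcgttggttcGAGAGAGcgcgcctcgaat
For the last 7 it is TATCGATA. The first 5 of them were lower in LaminB KD, among them the knocked-down gene itself, and eIF4B and vtd were higher.
Lam (chr2L:5542329-5542358, plus strand): tatcgttaagtTATCGATAgttgtgcacaa
mod(mdg4) (chr3R:21377437-21377466, minus strand): atattttaagcTATCGATAtattgtcactt
CTCF (chr3L:7356716-7356745, minus strand): accaatcgaacTATCGATAgctggcggtac
Arpc1 (chr2L:13829756-13829785, minus strand): caatcgaaaaaTATCGATAtaacgaaataa
CG31360 (chr3R:17684888-17684917, plus strand): atgttcacgtcTATCGATAacaatgcattt
eIF4B (chr3L:27858272-27858301, minus strand): cccgaaataaaTATCGATAacgatatagga
vtd (chr3L:27136515-27136544, plus strand): attttaaatgaTATCGATAatttgataaaa
The first group's repeats sit at varied distances from the start, in Hsp70Bb and hid 74 and 95 bases before it, and in nAChRalpha3 19 bases after it. pnt, a transcription factor of the Ets family, had 5542, 5581 and 5856 CPM in LaminB KD, against 4608, 4557 and 4878 CPM in mock 1 to 3 (interaction 0.51, SE 0.09, edgeR adjusted p 0.000598), and -0.071 with the length and GC correction. Arpc1, a subunit of the Arp2/3 complex that branches actin filaments, had an interaction of -0.52 (SE 0.13, edgeR adjusted p 0.0168), and -0.23 with the correction, which was not called (edgeR adjusted p 0.392).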

How the data were processed

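neuRNA-seq counts of 12 of the 23 libraries were analysed. The authors trimmed reads with cutadapt 1.10, mapped them to dm6 with HISAT2 2.0.4 and counted them by strand over gene bodies with featureCounts 1.5.0-p3, and deposited raw counts for 17659 genes. 1 edgeR 4.0.16 quasi-likelihood fit (R 4.3.3, TMM, filterByExpr) with 4 group means held all 12 libraries. The SE is the size of the log2 value divided by the square root of F. p-values were adjusted by Benjamini and Hochberg over 8377 genes and called under 0.1. Levels are CPM on TMM library sizes. On simulated counts the interaction recovered 57.5% of 200 genes changed by a factor of 2 among 8142 genes, with 14.8% of calls false. The false share was above the threshold of 0.1. The simulated counts held no difference between experiments, no Dcr-2 effect and no gradient with length or GC. They therefore do not give the error rate of the real calls.

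Named genes were the targets, the 10 largest lamina-specific interactions of each sign (mean of at least 5 CPM, LaminB KD and mock 1 to 3 not overlapping, rRNA pseudogenes left out), the 3 largest of each sign with a larger Dcr-2 effect, and the 2 members of each of 31 lists with the smallest p. Further members of these lists were named after their values were seen. Members, lists and tests were chosen with earlier results of these data known. Positions of 17464 genes came from the BDGP6 annotation, and 17495 of 17503 were identical in RefSeq. A chi-square over genes, divided by its degrees of freedom, was 6.95 to 16.3 for pairs of the same group, above sampling noise, so each library was counted once. Alternatives were RLE size factors, no filter, DESeq2 1.42.0, limma 3.58.1 voom, adjusted p under 0.05, AGO2 KD libraries in the fit, length and GC correction, replicate blocks and leaving out each library.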

Additional observations from a re-analysis of the deposited data

Results flagged for a closer look

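The test of the difference between the 2 knockdowns called 713 genes with a positive and 420 with a negative interaction, and at these genes the effect of LaminB KD on its mock libraries differed from that of Dcr-2 KD. At 68 genes the 2 effects were called in opposite directions. Of these, 60 had LaminB KD and mock 1 to 3, and Dcr-2 KD and mock 10 to 12, without overlap at a mean of at least 5 CPM. The same libraries gave the calls, so this lack of overlap is a description and no further support. The 60 include eIF4B, whose value is uncertain.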

How the results depend on the processing

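Of 82 named genes, 81 kept their direction and call with RLE size factors, with no filter and with AGO2 KD libraries in the fit, 80 with DESeq2, 76 with voom and 70 at an adjusted p under 0.05. The choice with most weight was the length and GC correction, with which 51 did so, 21 lost the call and 10 changed sign. It gave 215 positive interactions, 175 lamina-specific genes that were higher, 589 genes higher in LaminB KD and 86 lower in Dcr-2 KD. DESeq2 called 250 genes higher and 329 lower in Dcr-2 KD. voom called 440 lamina-specific genes that were lower and 1258 genes lower in LaminB KD. An adjusted p under 0.05 left 221 negative interactions, 136 lamina-specific genes that were lower, 500 lower in LaminB KD and 88 lower in Dcr-2 KD.

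Same-numbered libraries did not vary together (r of -0.05, -0.07 and 0.04 for LaminB KD with mock 1 to 3, and 0.05, 0.04 and 0.04 for Dcr-2 KD with mock 10 to 12). LaminB KD 1 and mock 2 had an r of 0.12. These values cannot show whether same-numbered libraries were handled together. With the replicate block in the LaminB experiment, 611 interactions were positive and 341 negative, and 112 genes were lower in Dcr-2 KD. With the replicate block in both, these were 738, 420 and 272. With the length and GC correction as well, the block in the LaminB experiment gave 177 positive interactions, 149 lamina-specific genes that were higher, 538 higher in LaminB KD and 67 lower in Dcr-2 KD, and the block in both gave 201, 166, 533 and 104.

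The interactions that changed sign are given with the correction alone, with the replicate block in the LaminB experiment and with the block in both. They were -0.042, -0.043 and -0.042 for AGO2, -0.032, -0.032 and -0.031 for AGO1, -0.16, -0.16 and -0.15 for jing, -0.13, -0.13 and -0.13 for vtd, -0.071, -0.072 and -0.072 for pnt, -0.085, -0.085 and -0.085 for ush, -0.15, -0.15 and -0.15 for InR, -0.25, -0.25 and -0.25 for cnc, -0.21, -0.21 and -0.21 for mbl, and -0.079, -0.079 and -0.079 for mub. The cause was not tested.

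Over the 12 fits without 1 library, positive interactions numbered 499 to 760 and negative ones 230 to 463, lamina-specific genes 344 to 509 higher and 125 to 289 lower, LaminB KD calls 658 to 1239 higher and 427 to 1146 lower, and Dcr-2 KD calls 66 to 187 higher and 33 to 254 lower. Negative interactions numbered 230 without mock 1, 232 without mock 2 and 254 without mock 10, and genes lower in Dcr-2 KD numbered 33 without mock 10. All 12 fits called 331 of the 511 lamina-specific genes that were higher and 101 of the 269 that were lower. Depth limits low levels, since 3 reads were 0.527 CPM in Dcr-2 KD 3, the shallowest library, and 0.238 CPM in mock 1, the deepest.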
